A study of Rattus norvegicus with 6 samples.

Results

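The isoforms described here were assembled transcripts of rat lung that shared at least 1 splice junction with an annotated transcript but had a different structure, which the assembly comparison marks with class code j. Members were the rows of the linear transcript table that had class code j and no Ensembl transcript name. There were 16851 of them among 70376 rows, of which 41501 were assembled and 28875 annotated. They lay in 7096 of 43626 gene loci, and 6825 of these loci also held an annotated row. For each isoform the share was computed as its FPKM (fragments mapped to a transcript, scaled by its length and by the size of the library) times its length, divided by the sum of the same product over all rows of the locus, in each library.

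Whole lung tissue of 6 Sprague-Dawley rats was profiled, with 1 library of rRNA-depleted total RNA per rat. The rats were 7 weeks old before they were divided into groups and treated. The 3 Model rats received bleomycin at 7 mg/kg as 1 intratracheal instillation, and the 3 Control rats received saline. Lungs of both groups were taken on day 28. Strain, age, dose and day are given by the study's methods, while the group of each library comes from its label, and no transgene or mutant allele was used in either group. The comparison asked which isoforms held a different share of their locus in fibrotic lung. Since whole lung was measured, fewer cells of a type and less RNA per cell cannot be told apart, and an isoform's share can also move when the mix of cell types does. The p-values measure the spread between the libraries of these 6 rats only.

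Most genes of mammals give more than one transcript, through the choice of promoter, of internal exons and splice sites, and of the site of cleavage and polyadenylation. Isoforms of a gene can encode different proteins, or the same protein with different untranslated ends that set stability and translation. Reads of short-read libraries that fall in exons shared by several isoforms cannot be given to one of them directly, so the assembler divides them by the junctions and coverage, and shares of close isoforms depend on that division.

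The promoters below are of genes whose class j isoforms, described later, began at or at some distance from the annotated 5′ end. The class j isoform of Sun2 began at the annotated 5′ end, that of Gopc 213 bases downstream of it, that of Il1a 1194 bases upstream and that of Stat6 953 bases upstream of the nearest annotated 5′ end. Each sequence is the RefSeq window of the GRCr8 build from 250 bases before to 50 bases after the gene's start, read 5′ to 3′ on the gene's strand. The windows are chr7:113172845-113173144 on the minus strand for Sun2, chr20:32319562-32319861 on the minus strand for Gopc, chr3:136989968-136990267 on the minus strand for Il1a and chr7:65365255-65365554 on the plus strand for Stat6. Capitals mark matches of a TATA box, searched as TATAAA, of a CCAAT box, searched by the letters of its name, and of a GC box, searched as GGGCGG. Both strands were searched.
Sun2: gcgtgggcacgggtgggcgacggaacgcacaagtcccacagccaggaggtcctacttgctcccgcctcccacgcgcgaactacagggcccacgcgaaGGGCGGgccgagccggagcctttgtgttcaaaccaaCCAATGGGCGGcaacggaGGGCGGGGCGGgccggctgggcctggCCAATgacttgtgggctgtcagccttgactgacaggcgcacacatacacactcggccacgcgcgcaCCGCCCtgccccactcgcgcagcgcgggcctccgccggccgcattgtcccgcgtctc
Gopc: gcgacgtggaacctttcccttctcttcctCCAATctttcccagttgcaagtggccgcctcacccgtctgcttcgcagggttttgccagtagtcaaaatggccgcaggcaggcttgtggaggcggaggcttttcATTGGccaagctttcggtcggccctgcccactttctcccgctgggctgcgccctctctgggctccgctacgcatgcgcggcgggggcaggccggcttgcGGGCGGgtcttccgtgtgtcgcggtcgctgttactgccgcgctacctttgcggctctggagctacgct
Il1a: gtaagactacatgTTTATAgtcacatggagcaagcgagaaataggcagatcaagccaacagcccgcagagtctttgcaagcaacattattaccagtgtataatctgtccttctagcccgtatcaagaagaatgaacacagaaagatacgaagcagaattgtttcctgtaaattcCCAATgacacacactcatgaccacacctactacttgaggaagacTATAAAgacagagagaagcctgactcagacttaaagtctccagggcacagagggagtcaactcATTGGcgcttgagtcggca
Stat6: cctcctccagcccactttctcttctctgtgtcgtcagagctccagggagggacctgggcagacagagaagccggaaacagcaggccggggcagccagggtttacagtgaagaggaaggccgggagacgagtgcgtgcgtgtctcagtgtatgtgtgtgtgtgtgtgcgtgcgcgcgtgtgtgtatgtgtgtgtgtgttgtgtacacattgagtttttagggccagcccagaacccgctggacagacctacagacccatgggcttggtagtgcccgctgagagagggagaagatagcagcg
The Sun2 window held 5 GC box matches, 2 of which overlap, and 2 CCAAT box matches, at a G and C content of 70.7%. The Gopc window held 2 CCAAT box matches and 1 GC box match at 64.3% G and C, and the Il1a window 2 TATA box and 2 CCAAT box matches at 44.3%. In the Stat6 window, with 58.7% G and C, no motif matched. Of 33469 windows of the same length, 14.2% held a TATA box, 37.5% a CCAAT box and 33.1% a GC box on either strand, with a median of 51.7% G and C. A match is only a description of the letters. The starts of the class j isoforms were not placed in these windows, so the matches are not tied to those isoforms. Coordinates of isoforms given in the following are those of the deposited table, whose build is not given in the sources used here and differs in position from the windows above.

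Class j isoforms were long compared with the annotated transcripts of their own loci. Their median length was 4363 bases, against 2217 for the annotated rows of the same loci, while the median number of exons was 9 against 10. Among the 16028 with an annotated transcript of the same gene name, 71.8% were longer than the longest annotated transcript, with a median ratio of 1.30. At the same time 67.3% had fewer exons than the annotated maximum and 16.3% had more.

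Both ends of these transcripts were often shifted. The 5′ end lay within 100 bases of the nearest annotated one in 42.5% of the 16028 isoforms, further upstream in 28.1% and further downstream in 29.4%. The 3′ end lay within 100 bases in 39.6%, further downstream in 33.4% and upstream in 26.9%. In 18.8% both ends were within 100 bases. A single class j isoform was found in 3281 loci, 2 in 1688 loci and 3 or more in 2127 loci, and the highest number in a locus was 69.

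Class j isoforms held most of the length-weighted FPKM of their loci in every library. This measure gives long isoforms more weight, and class j isoforms were longer, so it is not a share of transcript number. Over the 6825 loci with both kinds of rows they took 64.8%, 64.4% and 66.7% of the length-weighted FPKM in the 3 controls and 64.3%, 63.7% and 61.1% in the 3 models. All 3 controls lay above all 3 models, with 65.3% ± 1.23 against 63.1% ± 1.67 (SD, n = 3 each) and a difference of -2.26 points. An exact two-sided permutation test gave p = 0.1, the smallest that 3 rats against 3 allow. Model 3 was the lowest library, and without it the difference was -1.31 points (exact permutation test, p = 0.2). The median over 6790 loci of the summed class j share was 72.6% in controls and 71.6% in models (exact permutation test, p = 0.6). By this share, a class j isoform was the top isoform in all 6 libraries in 3047 of 6790 loci (44.9%). The same row was on top in all 6 libraries in 3185 loci (46.9%).

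The libraries were of like depth, with between 35778631 and 41112682 reads estimated from coverage, of which between 13054236 and 15603956 fell to class j rows. The labelled tissue was checked by its markers. Sftpc of type 2 cells lay between 2410 and 4146 FPKM, Ager of type 1 cells between 223 and 327 and Scgb1a1 of airway secretory cells between 4745 and 8984, while Krt13 of oesophagus was at most 0.0916 FPKM. Of the cardiac markers, Myh6 was listed at 0 in all controls and Model 1, at 0.0339 FPKM in Model 2 and at 5.11 FPKM in Model 3. Tnnt2 was 4.67 FPKM in Model 3 and at most 0.786 in the others. Actc1 was 13.8 FPKM in Model 3 and between 5.18 and 9.78 in the others, and Ryr2 was 1.83 against 0.393 to 0.666. Model 3 was thus the highest library in each of these, and the counts without it are given in the closing section. Of the skeletal muscle markers, Tnnt3 was 8.66 FPKM in Control 3 and between 1.56 and 3.26 in the others, while Ckm and Acta1 were at most 0.415. The part of the cardiac RNA in the shares was not tested beyond that.

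Shares of class j isoforms differed among libraries of a group about as much as between groups. Pearson's r of the shares after the arcsine of their square root, across isoforms, averaged 0.701 over the 6 pairs of libraries within a group and 0.706 over the 9 pairs between groups, and all 15 pairs lay between 0.690 and 0.716. The median SD within a group was 7.83 points over the 13377 class j isoforms tested. It fell with the depth of the gene, which was also seen at like shares. Among isoforms with a mean share between 30 and 70%, the median SD was 25.4 points in genes with fewer than 200 estimated reads per library, 16.3 points from 200 to 1000 reads, 11.2 points up to 5000 reads and 8.25 points in deeper genes. Isoforms with a near-identical row in the same locus (the same number of exons and both ends within 100 bases) had a median SD of 9.05 points (1889 isoforms), against 7.62 points in the 11488 without one. A share change of 10 points is thus near the usual spread between libraries of a group for a gene of moderate depth. With 1 library per rat, the spread between rats cannot be told apart from that of the estimates.

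Of the 16851 members, 13377 (79.4%) were tested for share, while 143 were left out because the gene had fewer than 50 estimated reads or an undefined share, and 3331 because the mean share was under 5%. With limma on the arcsine of the square root of the share, 5 class j isoforms (0.0374%) passed an adjusted p (Benjamini-Hochberg) of 0.05, beside a background of 0.0736% (19 of 25809 isoforms of all classes tested together). At an unadjusted p of at most 0.05 with a difference of at least 10 points, 443 were called, or 3.31% against a background of 3.55%. Of these, 205 were higher in the models (1.53%, background 1.72%) and 238 lower (1.78%, background 1.83%). In 1241 (9.28%) the groups did not overlap, against a background of 9.58%. An unadjusted p of at most 0.05 was found for 516 (3.86%, background 4.13%). By p alone, by p and size and by overlap, the percent of class j isoforms was thus near the background and below it, and by adjusted p, with few calls, it was lower. The 443 isoforms lay in 385 genes.

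**Figure D1:**
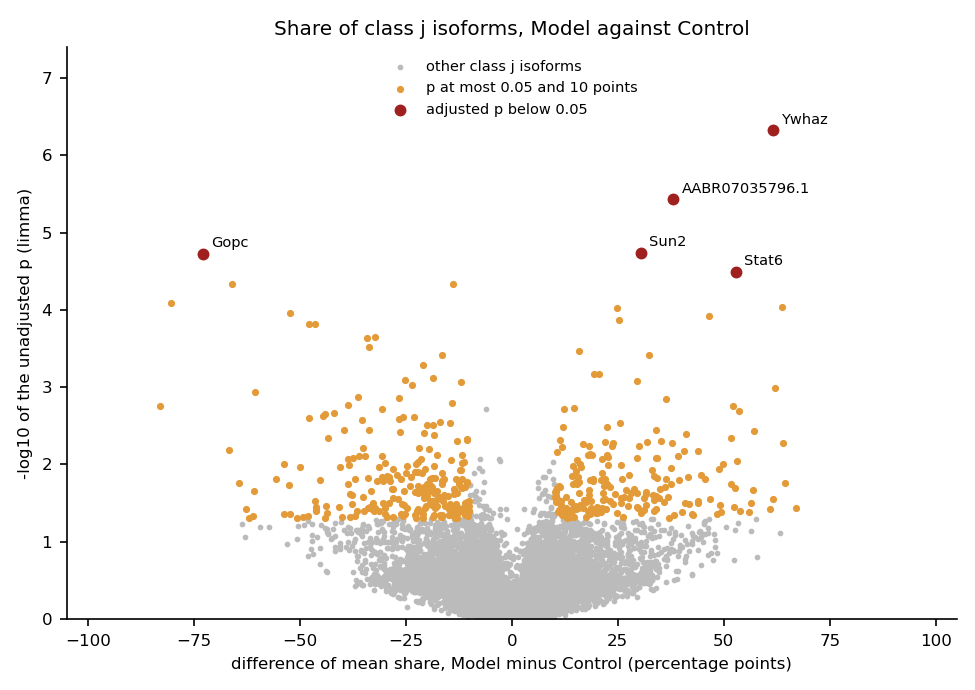
Difference of the mean share between Model and Control (x axis, percentage points) against -log10 of the unadjusted limma p (y axis) for the 13377 class j isoforms tested. The 443 isoforms called by p and size are orange, and the 5 with an adjusted p below 0.05 are dark red and named. 4 of those 5 lie on the side of a higher share in the models.

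The isoform with the smallest p was MSTRG.32789.3 of Ywhaz, which encodes 14-3-3 zeta, an adaptor protein that binds phosphorylated partners. Its share was listed at 0 in all 3 controls and was 61.3%, 64.3% and 59.1% in the 3 models (difference 61.6 points, SE 1.51, limma adjusted p = 0.00293). The groups did not overlap, and all models lay within a few points of each other. The isoform had 6 exons and spanned chromosome 7 from 75567920 to 75597276, with the same 5′ end as the annotated Ywhaz transcript and a 3′ end 7047 bases beyond it. In the same locus MSTRG.32789.1, a 12-exon class j isoform that the table names LOC362901, had 73.3%, 72.6% and 80.1% in the controls and 28.9%, 28.2% and 25.4% in the models (adjusted p = 0.111). The annotated transcript had between 19.9 and 27.4% in the controls and between 7.44 and 15.5% in the models. This locus holds rows named Ywhaz and LOC362901, so its shares are those of a merged locus. The gains and losses within a locus are not independent, since shares of a locus sum to 100%. The gene total, computed as the sum of FPKM times length over the rows of the locus divided by their mean length, was 22.1 ± 0.625 FPKM in controls and 23.8 ± 2.14 in models (SD, n = 3 each), with a log2 difference of 0.10 (adjusted p = 0.929). As a plain sum of FPKM its sign turned (log2 difference -0.33, adjusted p = 0.935).

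Stat6, the transcription factor that carries interleukin-4 and interleukin-13 signals, had a class j isoform with a higher share in every model. MSTRG.32697.1 held 7.45%, 5.85% and 5.72% in the controls and 65.7%, 59.6% and 52.0% in the models. The difference of 52.8 points (SE 3.98, limma adjusted p = 0.0458) was far above the spread in either group. The isoform had 20 exons over chromosome 7 from 70945275 to 70964472, and its 3′ end was 12 bases from the annotated one. The annotated transcript ENSRNOT00000085350, with 21 exons, went the other way, from 78.6%, 80.2% and 84.5% in the controls to 11.1%, 13.2% and 12.4% in the models (adjusted p = 0.0249). Summed over all class j isoforms of Stat6, the share was 20.9%, 19.5% and 15.2% in the controls and 85.5%, 83.1% and 84.4% in the models, which made it 1 of the 2 genes whose summed class j share passed an adjusted p of 0.05 (adjusted p = 0.0320). The total of the gene was 19.2 ± 1.54 FPKM in controls and 17.1 ± 1.07 in models (SD, n = 3 each; log2 difference -0.16, adjusted p = 0.929), and as a plain sum of FPKM the log2 difference was -0.58 (adjusted p = 0.718).

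Sun2 encodes a protein of the inner nuclear membrane that links the lamina with the cytoskeleton. Its isoform MSTRG.33447.1 held 0.012%, 0.00512% and 0.614% in the controls and 32.2%, 31.6% and 28.1% in the models (difference 30.4 points, SE 1.31, limma adjusted p = 0.0318). The values of all models were far above those of the controls. The 2 other main class j isoforms of the locus, MSTRG.33447.3 and MSTRG.33447.4, shared its 5′ end and ended 8 bases before its 3′ end. MSTRG.33447.3 had the same number of exons, 18, and a length of 3701 against 3691 bases, and held 65.3%, 81.7% and 58.6% in the controls and 34.0%, 54.1% and 53.0% in the models. The summed class j share of Sun2 was between 98.0 and 98.8% in all libraries, so that the difference lay between class j isoforms with nearly the same ends.

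Gopc, a Golgi protein with a PDZ domain that sorts membrane proteins including the CFTR channel, lost a class j isoform. MSTRG.21996.3 held 85.7%, 68.0% and 64.9% in the controls and was listed at 0 in all 3 models (difference -72.8 points, SE 6.47, limma adjusted p = 0.0318). No library of one group came near the other. The annotated 9-exon transcript ENSRNOT00000057476 was between 0.0334 and 0.0985% in the controls and held 42.9%, 42.3% and 21.7% in the models (adjusted p = 0.165). The 3-exon class j isoform MSTRG.21996.1 took the rest, with between 13.2 and 32.6% in the controls and between 57.1 and 78.3% in the models (adjusted p = 0.883). The locus also holds rows named AABR07045071.1, so its shares are those of a merged locus.

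The fifth isoform, MSTRG.8910.1, belonged to AABR07035796.1, a locus known only by a clone name, on chromosome 12 from 22601608 to 22611265. Its share was 64.8%, 62.0% and 59.0% in the controls and 100% in each model, as the 2-exon annotated transcript was listed at 0 in all 3 models (difference 38.1 points, SE 1.68, limma adjusted p = 0.0105). The FPKM of the class j isoform was 3.40, 3.44 and 3.18 in the controls and 3.63, 11.5 and 12.6 in the models. The groups did not overlap, but Model 1 was close to the controls. It was also the other gene whose summed class j share passed the test (adjusted p = 0.0242).

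**Figure D2:**
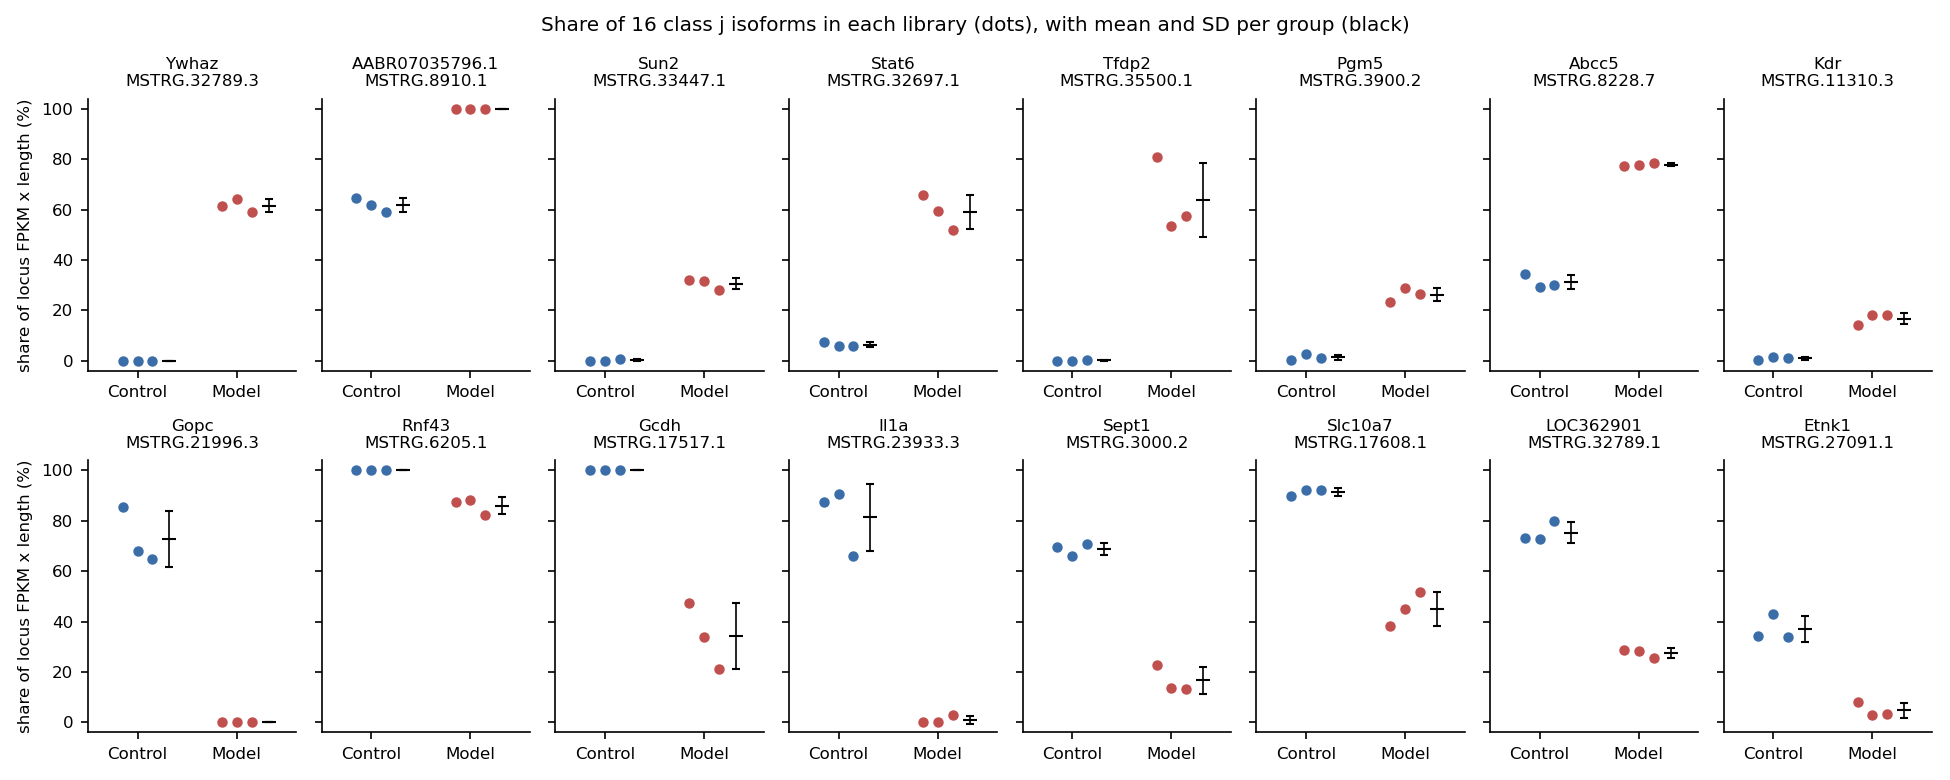
Share of the locus (y axis, percent of FPKM times length) of 16 class j isoforms in each Control (blue) and Model (red) library, with the mean and SD of each group in black. The upper row holds the 8 isoforms with the smallest p for a higher share in the models and the lower row the 8 for a lower share. In all 16 the groups do not overlap, which the choice by smallest p favours. The groups do not overlap in 9.28% of all class j isoforms tested and in 9.58% of all isoforms tested.

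Further isoforms with a small p missed the adjusted threshold, and their values are given as such. Which isoforms passed depended on the settings, as some of these isoforms passed under alternatives given in the closing section. Of these, Tfdp2, the dimer partner of E2F factors, had the widest gain. MSTRG.35500.1 held 0%, 0.120% and 0.307% in the controls and 80.8%, 53.4% and 57.4% in the models (adjusted p = 0.0870). Its 5′ end lay 65941 bases upstream of the annotated one. The other class j isoforms of Tfdp2 varied among controls, as MSTRG.35500.2 held 89.5% in Control 1, 26.7% in Control 2 and 13.1% in Control 3.

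Kdr encodes the main receptor of VEGF on endothelial cells and was one of the deepest genes among these, with a mean of 20657 estimated reads. Its isoform MSTRG.11310.3 held 0.436%, 1.56% and 0.962% in the controls and 14.2%, 18.2% and 18.0% in the models (difference 15.8 points, SE 1.36, adjusted p = 0.193). All models were above all controls. The isoform had 29 exons and both ends of the annotated 30-exon transcript, but was 6561 bases long against 5986. The class j rows MSTRG.11310.1 and MSTRG.11310.2 had the same ends, exon number and length as that annotated transcript and cannot be told apart from it here. MSTRG.11310.2 held 21.6%, 0% and 20.9% in the controls. The summed share thus also depends on how reads were divided between these rows and the annotated one. The summed class j share of Kdr was 71.7%, 62.0% and 72.0% in the controls and 71.6%, 89.2% and 67.5% in the models, without a call.

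Abcc5, an exporter of cyclic nucleotides, and Pgm5, a phosphoglucomutase relative found at adherens junctions of muscle, were the others of the upper 8. MSTRG.8228.7 of Abcc5 held 34.4%, 29.4% and 30.1% in the controls and 77.2%, 77.9% and 78.4% in the models (adjusted p = 0.0939). The remainder in the controls was not 1 isoform, since MSTRG.8228.1 held it in Control 1 and Control 2 (53.9% and 56.5%) and MSTRG.8228.8 in Control 3 (64.3%). MSTRG.3900.2 of Pgm5 held between 0.529 and 2.65% in the controls and between 23.5 and 28.8% in the models (adjusted p = 0.0870).

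Among the named isoforms with a lower share that missed the adjusted threshold, those of Il1a and Gcdh had the largest differences. Il1a encodes interleukin-1 alpha, a cytokine that damaged epithelium and myeloid cells release. Its class j isoform MSTRG.23933.3, with 7 exons and the annotated 3′ end, held 87.3%, 90.7% and 66.2% in the controls, was listed at 0 in Model 1 and Model 2, and held 2.80% in Model 3 (difference -80.5 points, SE 7.72, adjusted p = 0.0833). The models then carried the annotated transcripts, ENSRNOT00000006113 with 65.5%, 36.9% and 97.2%, and ENSRNOT00000006126 with 34.5%, 63.1% and 0%. Il1a was shallow, with a mean of 218 estimated reads. Its total had an unadjusted p of at most 0.05, with 5.88 ± 1.58 FPKM in controls and 2.54 ± 0.453 in models (SD, n = 3 each; log2 difference -0.94, SE 0.19, adjusted p = 0.929), while as a plain sum of FPKM the log2 difference was -0.47 (adjusted p = 0.935).

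Gcdh encodes glutaryl-CoA dehydrogenase, an enzyme of lysine breakdown in mitochondria. MSTRG.17517.1 was the only row of the locus above 0 in the controls, at 100% in each, and held 47.2%, 34.1% and 21.0% in the models (difference -65.9 points, SE 7.55, adjusted p = 0.0577). The annotated ENSRNOT00000004570 was listed at 0 in all controls and held 52.8%, 65.9% and 79.0% in the models (adjusted p = 0.0466). The gene total was 5.13 ± 0.216 FPKM in controls and 5.40 ± 0.230 in models (SD, n = 3 each). Rnf43, a ubiquitin ligase that removes Wnt receptors, had the same form at a smaller size, with MSTRG.6205.1 at 100% in each control and at 87.3%, 88.5% and 82.4% in the models (adjusted p = 0.0577).

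The other isoforms of the lower 8 were of Slc10a7, Sept1 and Etnk1. MSTRG.17608.1 of Slc10a7, a membrane carrier needed for glycosylation, held 89.8%, 92.3% and 92.2% in the controls and 38.3%, 45.1% and 51.8% in the models (adjusted p = 0.111). What replaced it differed among the models, since the annotated transcript held 61.7% in Model 1 and 47.9% in Model 3, whereas in Model 2 the class j isoform MSTRG.17608.3 held 48.5%. MSTRG.3000.2 of the septin gene Sept1 held between 66.2 and 70.7% in the controls and between 13.2 and 22.9% in the models (adjusted p = 0.0939), and here too a different isoform led in each model. MSTRG.27091.1 of Etnk1, an ethanolamine kinase of phospholipid synthesis, held 34.3%, 43.1% and 34.1% in the controls and 8.05%, 2.81% and 3.43% in the models (adjusted p = 0.152), and its 18344-base partner MSTRG.27091.2 held the rest. The Etnk1 locus held no annotated row, so its shares are among assembled rows only.

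**Figure D3:**
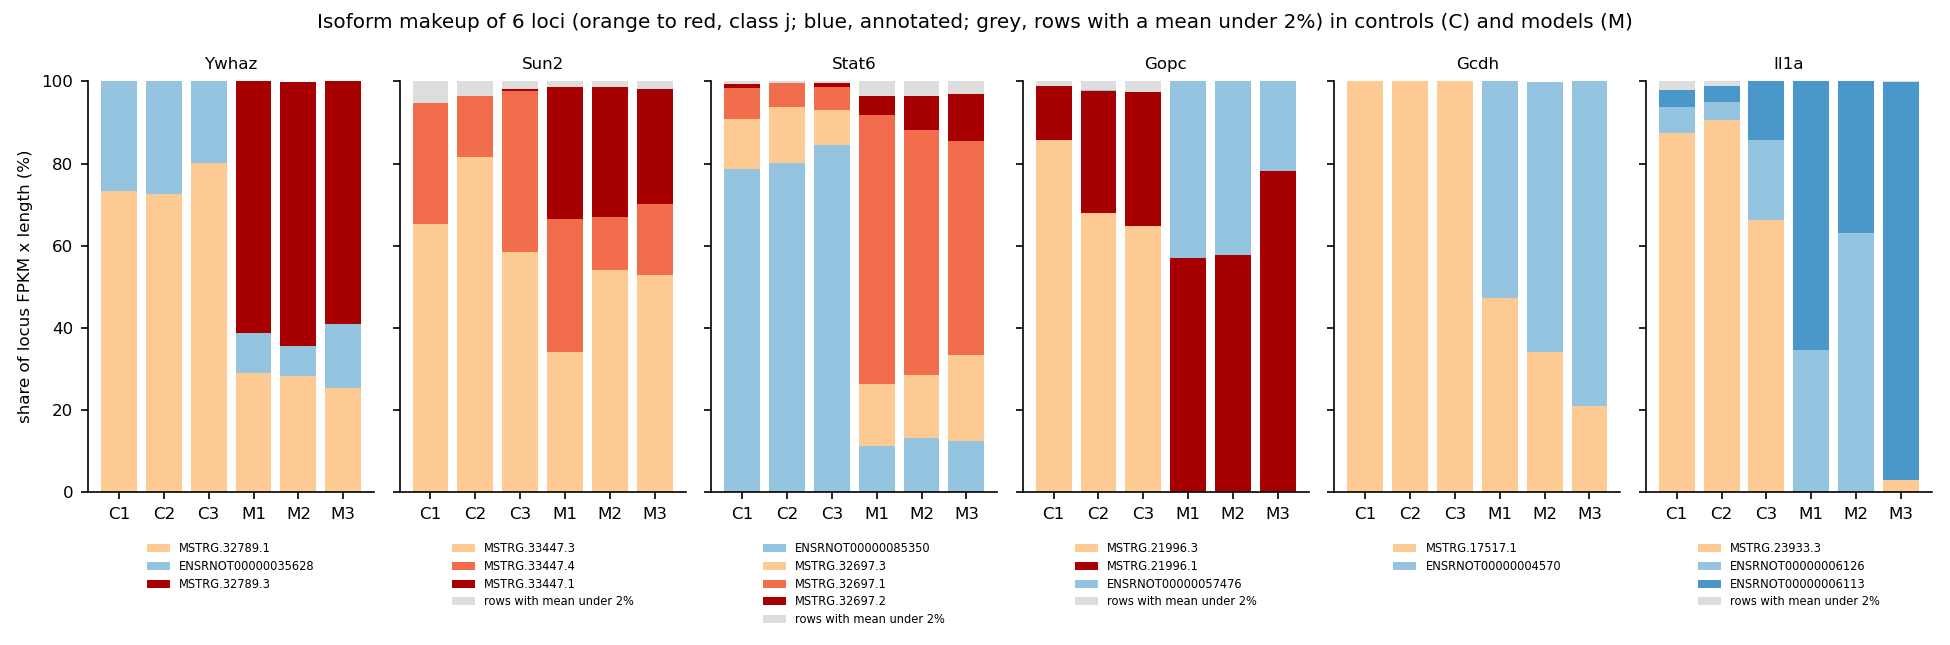
Isoform makeup of the Ywhaz, Sun2, Stat6, Gopc, Gcdh and Il1a loci in each Control (C1 to C3) and Model (M1 to M3) library, as the share of FPKM times length (y axis, percent). Class j isoforms are orange to red, annotated transcripts blue and rows with a mean share under 2% grey. At Stat6 the annotated transcript leads in all controls and a class j isoform in all models, and at Gcdh the order is the reverse.

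In 43 of 6790 genes (0.633%) 1 isoform was on top in all controls and another in all models. The top isoform went from a class j to an annotated row in 16 of them, from 1 class j row to another in 15, from an annotated to a class j row in 10 and between annotated rows in 2. Ywhaz, Stat6, Gopc and Gcdh were among these genes. The summed class j share of a gene, which does not depend on how reads are divided among its class j isoforms, was called by p and 10 points in 213 of 6790 genes (3.14%), being higher in 94 and lower in 119. An unadjusted p of at most 0.05 was found for 275 genes (4.05%), and 2 genes (0.0295%) passed by adjusted p.

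The level of an isoform in FPKM was tested beside its share. Of 15984 class j isoforms tested with limma on log2(FPKM + 1), 534 (3.34%) had an unadjusted p of at most 0.05 and a log2 ratio of group means of at least 1 in size, against a background of 2.98% of all transcripts. Of these, 241 were higher in the models (1.51%, background 1.22%) and 293 lower (1.83%, background 1.76%). An unadjusted p of at most 0.05 was found for 814 (5.09%, background 4.53%). By adjusted p, 3 passed (0.0188%, background 0.0277%), which were the isoforms of Ywhaz (adjusted p = 0.00378), Sun2 (adjusted p = 0.00938) and Stat6 (adjusted p = 0.0359). MSTRG.32697.1 of Stat6 was at 0.989, 0.897 and 0.772 FPKM in the controls and at 8.59, 6.91 and 6.65 FPKM in the models. Of the 443 isoforms called by share, 267 (60.3%) were also called by FPKM. Shares are computed from these same FPKM values, so the tests are not independent and passing both is no separate support. Of their 385 genes, 34 (8.83%) had a gene total with an unadjusted p of at most 0.05, against 4.84% of all genes tested for the total. The former had at least 50 estimated reads, while the latter needed only a total above 0 in at least 3 libraries. These percents are thus not of like genes.

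The ends of the called isoforms were compared with those of all tested. Among the 419 called isoforms with an annotated transcript of the same name, the 3′ end lay within 100 bases of the annotated one in 50.6% and upstream of it in 16.2%, against 41.0% and 24.7% of the 12831 tested. The 5′ end lay within 100 bases in 46.5% of the called and 43.3% of the tested isoforms.

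The gene lists of fibrosis and lung biology are described by their counts of isoforms called by p and 10 points, beside the background of 3.55%, and no list held an isoform with an adjusted p below 0.05. Over all 13377 isoforms the median difference was -0.22 points and the median size of a difference 4.44 points. For the extracellular matrix, 0 of 16 class j isoforms tested were called, for the contractile and actin cytoskeleton 0 of 26, for TGF-beta signalling 0 of 37 and for immune cells 0 of 10. In these 4 lists, limma also gave 0 isoforms with an unadjusted p of at most 0.05. In lists of this size a percent equal to the background would be about 1 isoform or fewer, so nothing particular to them is read from the counts of 0. The lists of alveolar and airway epithelium and of endothelium held 1 call each, among 29 (3.45%) and 23 (4.35%) isoforms tested, which is near the background.

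In the matrix list, Fn1, the fibronectin gene whose alternative exons are known from wound repair, had 1 dominant class j isoform at a steady share. MSTRG.37244.9, with 45 exons, held 85.6%, 86.9% and 87.7% in the controls and 85.0%, 86.0% and 84.6% in the models (difference -1.56 points, SE 0.742, adjusted p = 0.970). The largest difference in the list was that of MSTRG.19644.2 of Postn, which encodes the matricellular protein periostin. It held 90.4%, 73.1% and 20.8% in the controls and 86.3%, 87.5% and 94.4% in the models, so that Control 3 was far below the other 5 libraries (adjusted p = 0.952). In Control 3 the annotated ENSRNOT00000017453, which differs by 1 base in length (3177 against 3178), held 58.5%.

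In the contractile list, MSTRG.13851.1 of the tropomyosin gene Tpm4 held between 88.2 and 91.6% in all 6 libraries. MSTRG.39111.1 of Flna, which encodes the actin crosslinker filamin A, held 63.8%, 77.2% and 55.1% in the controls, but 0.980% in Model 1, 0.350% in Model 2 and 73.4% in Model 3 (adjusted p = 0.952). Model 3 lay with the controls. In the TGF-beta list the largest difference was of MSTRG.17022.1 of Smad4, the common partner of the receptor-activated Smads, with 84.5%, 0.139% and 34.0% in the controls and 82.7%, 70.2% and 45.2% in the models (adjusted p = 0.952). This locus held no annotated row, so its shares are among assembled rows only. MSTRG.31203.2 of the ligand gene Tgfb3 held 68.6%, 81.2% and 90.4% in the controls and 100%, 84.9% and 71.0% in the models (adjusted p = 0.963).

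Among splicing regulators, 4 of 106 class j isoforms were called by p and 10 points (3.77%, background 3.55%), 1 higher and 3 lower, and 6 had an unadjusted p of at most 0.05. MSTRG.25781.4 of Hnrnpa2b1, an hnRNP protein of splice site choice, held 25.9%, 25.1% and 23.4% in the controls and 38.9%, 34.2% and 35.0% in the models (difference 11.3 points, SE 1.62, adjusted p = 0.952). MSTRG.29281.2 of Srsf10 held 49.5%, 41.8% and 45.9% in the controls and 33.5%, 17.1% and 20.5% in the models (adjusted p = 0.952). The groups of neither isoform overlapped. MSTRG.21176.2 of Srsf11 held between 42.6 and 66.2% in the controls and between 7.33 and 34.9% in the models (adjusted p = 0.952). MSTRG.13492.13 of Mbnl2, a muscleblind factor, held 3.29% in Control 1, 10.9% in Control 3 and 19.996% in Control 2, and was listed at 0 in all 3 models (difference -11.4 points, SE 4.83, adjusted p = 0.912). MSTRG.27529.5 of Esrp1, the epithelial splicing factor, held 3.24% in Control 2 and between 40.7 and 63.5% in the other 5 libraries (adjusted p = 0.952). MSTRG.25761.3 of Tra2a stayed between 84.6 and 86.9%.

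In the epithelial list the call was MSTRG.13810.3 of Sftpd, the collectin surfactant protein D, with 20.2%, 8.53% and 6.94% in the controls and 23.8%, 40.1% and 24.6% in the models (difference 17.6 points, SE 6.76, adjusted p = 0.952). The lowest model was close to the highest control. MSTRG.35580.1 of the tight junction gene Cldn18 was listed at 0 in Control 1, Control 2 and Model 1 and held 4.11% in Control 3, 38.9% in Model 2 and 47.1% in Model 3 (adjusted p = 0.952). MSTRG.11277.2 of Hopx, a marker of type 1 cells, was even, between 60.1 and 71.2%. In the endothelial list the call was the Kdr isoform described above, and MSTRG.17221.1 of the cadherin gene Cdh5 held between 74.5 and 85.9% in all libraries. For immune cells, MSTRG.16846.2 of Csf1r, the receptor that macrophages need to survive, held 62.8%, 70.4% and 65.7% in the controls and 91.2%, 74.9% and 78.9% in the models (difference 15.4 points, SE 5.39, adjusted p = 0.952), and MSTRG.9957.7 of Ptprc between 76.8 and 81.5% in all libraries.

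Of the 5 class j isoforms with the highest mean FPKM times length, several had shares that varied widely among libraries of the same group. MSTRG.8699.1 of Actb, which encodes beta-actin, held 99.7%, 17.6% and 99.3% in the controls and 6.96%, 99.4% and 0% in the models. It was thus near 100% in Control 1, Control 3 and Model 2 and low in the other 3 libraries, in which the annotated ENSRNOT00000042459 led with 68.8%, 87.6% and 53.6%. The gene total was 1549 ± 345 FPKM in controls and 1476 ± 256 in models (SD, n = 3 each; log2 difference -0.06, and 0.14 as a plain sum of FPKM). A mean of 103414 estimated reads stood behind these shares. MSTRG.8699.1 began 4297 bases upstream of the annotated 5′ end.

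MSTRG.13806.1 of the surfactant protein gene Sftpa1 held 73.0%, 80.6% and 19.9% in the controls and 18.8%, 68.9% and 84.4% in the models. It changed places with MSTRG.13806.2, which also has 5 exons, ends at the same 3′ end, starts 34 bases later and is 37 bases shorter. Summed over both, the class j share of Sftpa1 was between 91.8 and 99.8% in all libraries. MSTRG.29927.1 of Epas1, the hypoxia-inducible factor 2 alpha gene, ranged from 24.0% in Model 2 to 82.4% in Control 1, and in Model 2 the isoform MSTRG.29927.3, listed at 0 in the other 5 libraries, held 48.0%. MSTRG.12272.8 of the spectrin gene Sptbn1 ranged from 20.6 to 69.3%, while the summed class j share was between 99.9 and 100%. MSTRG.35320.2 of the translation elongation factor gene Eef1a1 was steadier, between 44.5 and 65.4%. None of these 5 isoforms was called.

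**Figure D4:**
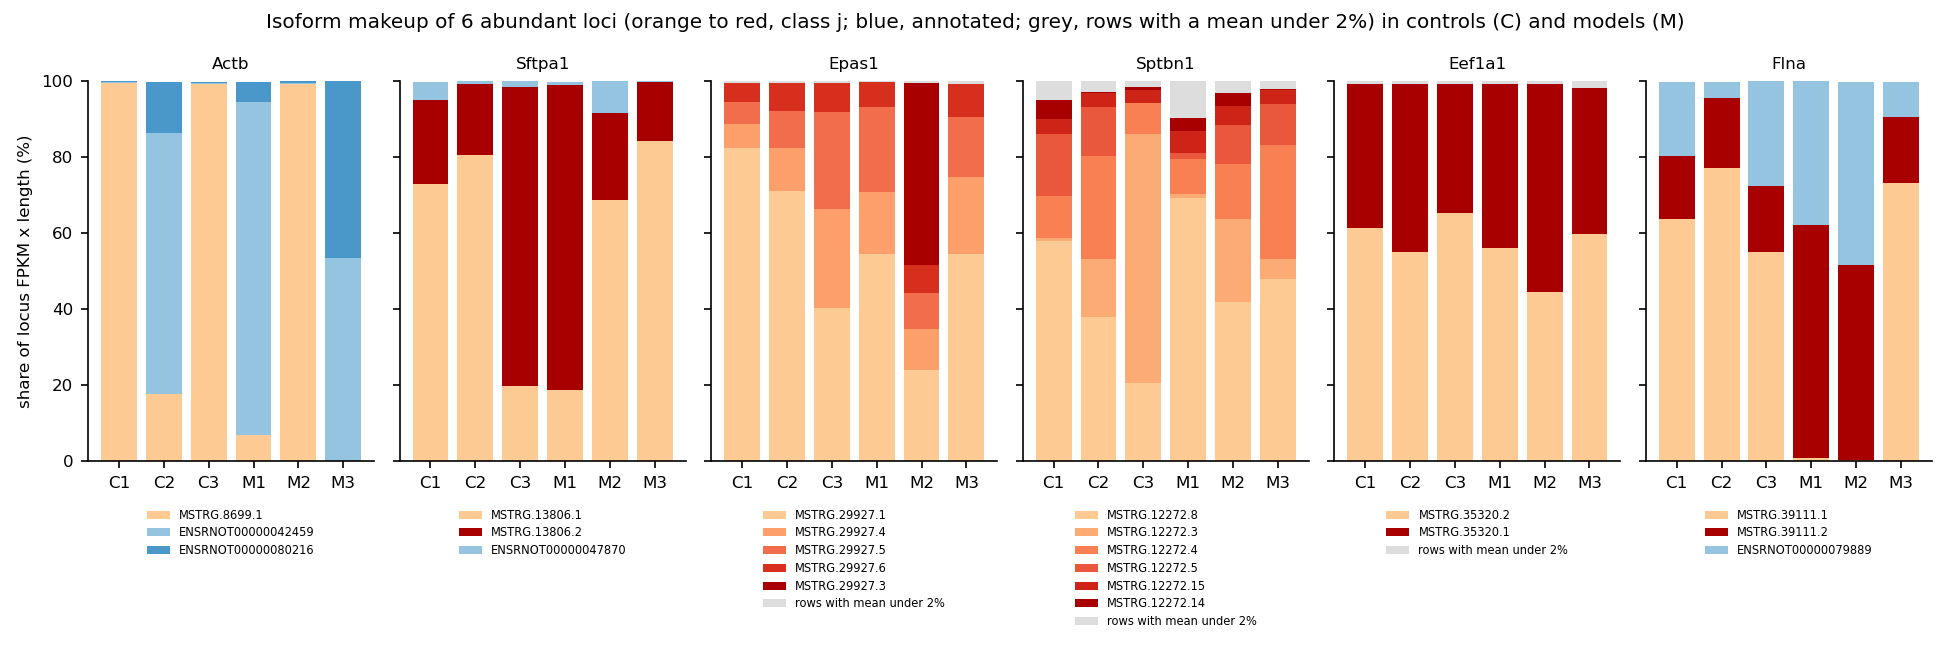
Isoform makeup of the abundant Actb, Sftpa1, Epas1, Sptbn1, Eef1a1 and Flna loci in each library, as the share of FPKM times length (y axis, percent). Class j isoforms are orange to red, annotated transcripts blue and rows with a mean share under 2% grey. The leading isoform of Actb and Sftpa1 changes from library to library within both groups, and that of Flna is shared by the controls and Model 3.

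Lrrk2, a kinase gene named in the study's text, was the contrary case, with 2 class j isoforms at steady shares. MSTRG.33701.1, with 51 exons, held 69.7%, 65.3% and 71.1% in the controls and 70.6%, 71.2% and 68.0% in the models (difference 1.21 points, SE 2.01, adjusted p = 0.993). MSTRG.33701.2, with 13 exons and a 3′ end 102690 bases before the annotated one, held between 25.3 and 30.4% in all libraries. The groups overlapped for both isoforms.

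Few class j isoforms were listed at 0 throughout one group and above 0 throughout the other. Those at 0 throughout one group and above 0 in only part of the other were not counted. Of the tested class j isoforms, 1651 (12.3%) were listed at 0 in at least 1 library. Of all 16851 members, 17 were listed at 0 in every control and above 0 in every model, as MSTRG.32789.3 of Ywhaz was. The reverse held for 19, as for MSTRG.21996.3 of Gopc. The same counts over all transcripts are not given here, so nothing particular to class j isoforms is read from them.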

How the data were processed

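RNA of whole lung was sequenced in 6 libraries, depleted of rRNA. Per the methods, the authors used Cutadapt for trimming, Bowtie2 with Tophat2 for mapping (the submitters' processing notes name HISAT2, StringTie and TopHat) and StringTie for an assembly of each library and their merging. They deposited the FPKM of each transcript, and the mean per-base coverage, a signal not scaled by library size. Versions, build and annotation are not given in the sources used here. A table of circular RNAs was not used.

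Shares were computed from FPKM times length within a locus. Reads were estimated as coverage times length over the read length of 150 bases, which gives a relative depth, not a count. Shares were tested with limma 3.58.1 (with trend) in R 4.3.3 after the arcsine of the square root, over all isoforms of genes with at least 50 reads and of a mean share of at least 5%. FPKM were tested on log2(FPKM + 1), above 0 in at least 3 of 6 libraries; such fold changes understate those of low isoforms. P-values were adjusted by Benjamini-Hochberg over all features tested, two-sided, and single values by exact permutation. Members, lists and rules were chosen with earlier results of these data known. Named isoforms were the 8 with the smallest p in each direction (mean FPKM of at least 1), per list that with the largest difference and that with the highest share, the 5 most abundant, those of genes in the study's text, and Ywhaz and Sun2; called isoforms of the lists were added after their values were seen. The labels do not say whether replicate numbers pair the libraries. Correlations of deviations between same-numbered libraries were -0.0134, 0.0199 and -0.0112, which cannot settle it. Figures were drawn with matplotlib 3.10.9. Alternatives are given in the closing section.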

Additional observations from a re-analysis of the deposited data

How the results depend on the processing

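Counts of class j isoforms called by share with p and size stayed within 1.5 times of 443 under all alternatives (314 to 525). So did those of summed shares (189 to 243 against 213) and of FPKM (416 to 691 against 534). Without Model 3, which had the highest values of the cardiac markers, these counts were 496, 231 and 609. Rescaling FPKM to a common sum per library (a shift of 0.09 log2) turned the FPKM split from 241 higher and 293 lower to 290 and 246. Counts by adjusted p were less stable, and the cause was not tested. For shares the count of 5 became 8 with a log ratio and 3 in loci whose annotated rows bear 1 gene name, which keeps the Ywhaz locus. It became 1 among isoforms above 0 in all 6 libraries (added after seeing the data). Leaving out 1 library gave 3 to 10, with 9 without Control 1, 8 without Control 3, 3 without Model 1 and 10 without Model 3. For summed shares the count of 2 became 4 with a log ratio and 0 to 6 on leaving out 1 library (4 without Control 1; 0 without Control 2, Control 3 or Model 1; 6 without Model 2 or Model 3). For FPKM the count of 3 became 8 with a pseudocount of 0.1 and 6 after rescaling, and 0 to 7 on leaving out 1 library (7 without Control 1; 1 without Control 2; 0 without Control 3 or Model 2). The fit with the replicate block left 0 by adjusted p for shares, summed shares and FPKM. By p and size it left 395, 189 and 558. Whether the replicate numbers pair the rats is not known.

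The adjusted p of Ywhaz MSTRG.32789.3 ranged from 0.00241 to 0.347 and was below 0.05 in 15 of 16 alternatives, that of AABR07035796.1 MSTRG.8910.1 from 0.00589 to 0.813 (13 of 16), Sun2 MSTRG.33447.1 from 0.0264 to 0.947 (9 of 15), Gopc MSTRG.21996.3 from 0.0159 to 0.832 (9 of 15) and Stat6 MSTRG.32697.1 from 0.0278 to 0.884 (6 of 16), with the direction kept. Of the named isoforms that missed the adjusted threshold, Gcdh MSTRG.17517.1 and Rnf43 MSTRG.6205.1 were below 0.05 in 5 of 16 alternatives each. Tfdp2 MSTRG.35500.1 was below it in 2, and Il1a MSTRG.23933.3 and Abcc5 MSTRG.8228.7 in 1 each. The difference in total class j share stayed between -2.87 and -1.31 points. Its exact p was 0.2 by plain FPKM and in loci whose annotated rows bear 1 gene name, and 0.25 with the block. Signs turned on leaving out 1 library in 8 isoforms without a call: Tra2a MSTRG.25761.3 (-0.791 to 0.387 points over the 6 fits), Tgfb3 MSTRG.31203.2 (-2.12 to 12.4), Sftpa1 MSTRG.13806.1 (-19.4 to 18.8), Lrrk2 MSTRG.33701.1 (-0.489 to 2.43) and MSTRG.33701.2 (-1.95 to 0.525), Hopx MSTRG.11277.2 (-1.33 to 2.83), Cdh5 MSTRG.17221.1 (-3.32 to 2.14) and Tpm4 MSTRG.13851.1 (-1.19 to 0.504). No named gene total passed an adjusted p, with weights or as a plain sum, but in the latter its sign turned for Ywhaz (log2 0.10 to -0.33), AABR07035796.1 (0.55 to -0.61), Rnf43 (-0.09 to 0.15), Cldn18 (0.16 to -0.09), Csf1r (0.04 to -0.12) and Actb (-0.06 to 0.14). Close isoforms, 3 rats a group and unknown exon structure limit what these shares can show.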

Other observations

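Further genes, chosen after their values were seen, gave class j isoforms whose groups did not overlap, though none passed an adjusted p. Groups did not overlap in 9.28% of the 13377 class j isoforms tested, against 9.58% of all isoforms tested. Nothing particular to these genes is thus read from the lack of overlap. Nox4, an NADPH oxidase that makes hydrogen peroxide, had MSTRG.2281.1 at 38.4%, 21.4% and 38.7% in the controls and 56.5%, 69.2% and 74.9% in the models (limma adjusted p = 0.885), and MSTRG.2281.3, with 8 exons, at 45.1%, 47.9% and 44.9% against 34.1%, 13.5% and 5.88%. Npas2, a clock transcription factor, had MSTRG.36778.2 at 5.85%, 18.7% and 0% in the controls and 73.7%, 71.0% and 66.1% in the models (adjusted p = 0.323). In Gata6, a transcription factor of lung epithelium and vessels, MSTRG.16154.2 held 47.6%, 48.1% and 48.0% in the controls and 28.3%, 25.8% and 29.8% in the models (adjusted p = 0.615), while MSTRG.16154.1 held 33.1%, 31.5% and 32.1% against 46.9%, 52.2% and 44.7%. E2f6, a repressor of the E2F family, had MSTRG.30297.1 at 100%, 90.2% and 100% against 47.8%, 42.3% and 18.3% (adjusted p = 0.355). Lcp1, the plastin of leukocytes, had MSTRG.13242.1 at 99.3%, 98.7% and 99.4% against 79.9%, 88.1% and 80.4% (adjusted p = 0.194). Add1, which encodes the membrane skeleton protein alpha-adducin, had a summed class j share of 35.1%, 32.9% and 45.8% in the controls and 77.1%, 76.3% and 73.2% in the models (adjusted p = 0.398).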
